A study of Mus musculus with 3 samples.

Results

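The GIMAP genes (GTPases of the immunity-associated proteins) are described here in mouse CD8 T cells of 3 single-cell RNA libraries. The members were taken by name from the 31053 genes of the 3 count matrices: Gimap1, Gimap3, Gimap4, Gimap5, Gimap6, Gimap7, Gimap8 and Gimap9, 8 genes in all. The libraries came from C57BL/6 mice of wild-type genotype and are labelled as P14 cells, whose transgenic T cell receptor recognizes GP33 of LCMV (lymphocytic choriomeningitis virus). They carried a TCF-1-GFP reporter. For the library called TdLN (tumour-draining lymph node) and the library called PBMC (blood mononuclear cells), naive P14 cells were given 8 days after B16.Gp melanoma cells, which express the LCMV glycoprotein, and CD45.1+CD44+ CD8 T cells were sorted 16 days after that transfer. For the memory library, CD8 T cells that were positive for CD45.1, CD44 and CD127, among other markers, and negative for KLRG1 were sorted 200 days after acute LCMV infection, so this library alone was gated for memory surface markers. Each group is 1 library, the number of mice behind it and the tissue of the memory cells are not stated, and a tumour library named in the design was not analysed here.

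GIMAP proteins are membrane-associated GTPases of lymphocytes, encoded in a single gene cluster, and are known for their part in the survival of resting lymphocytes. Animals that lack Gimap5 lose peripheral T cells, and loss of Gimap1 depletes mature T and B cells. Several members have been tied to the BCL2 family of apoptosis regulators, and Gimap6 to the ATG8 family of autophagy proteins.

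The 8 genes lay on chromosome 6 between positions 48647234 and 48770851 (GENCODE M21, GRCm38, the assembly of mm10), a stretch of 124 kb with 6 genes on the plus strand and Gimap3 and Gimap6 on the minus strand. Gimap7 lies at chromosome 6, positions 48718621 to 48724636. Of the 21 other genes of the matrices within 200 kb, 0 reached 20 CPM (UMI counts per 1e6 counts of the summed T cells) in any library. The nearest of them in level was the long noncoding RNA 4833403J16Rik, with 8.72 CPM in TdLN, 9.09 CPM in PBMC and 12.8 CPM in memory. The predicted gene Gm28053 overlaps Gimap7, Gimap1 and Gimap5 on the same strand, and was listed at 0.599, 1.28 and 2.04 CPM. Counting at the 3' end can split near-identical copies, so the last 500 bases of each member's transcripts were compared with all other genes in words of 60 bases. Gimap1 shared 4.98% of its words with Gm10310 or Gm28053 and Gimap3 shared 1.35% with Gm38409, while the other 6 members shared 0 words and no word was shared between members. The levels of Gimap1 and Gimap3 are therefore uncertain by what the counting assigned to those copies.

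Promoter sequence is shown for 3 members: Gimap7, whose level differed most between the libraries, Gimap6, whose level differed little, and Gimap3, which holds 1 of the 2 motif matches found. Each line is the 250 bases before the first transcription start listed by RefSeq (GRCm38.p6), read 5' to 3' on the gene's own strand, with capitals for a motif match. All 8 members were matched in that table.

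Gimap7 (chr6:48718371-48718620, plus strand): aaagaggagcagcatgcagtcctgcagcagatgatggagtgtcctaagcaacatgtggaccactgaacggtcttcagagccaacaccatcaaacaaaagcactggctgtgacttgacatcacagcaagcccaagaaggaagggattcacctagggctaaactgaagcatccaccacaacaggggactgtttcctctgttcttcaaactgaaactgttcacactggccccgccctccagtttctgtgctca
Gimap6 (chr6:48708245-48708494, minus strand): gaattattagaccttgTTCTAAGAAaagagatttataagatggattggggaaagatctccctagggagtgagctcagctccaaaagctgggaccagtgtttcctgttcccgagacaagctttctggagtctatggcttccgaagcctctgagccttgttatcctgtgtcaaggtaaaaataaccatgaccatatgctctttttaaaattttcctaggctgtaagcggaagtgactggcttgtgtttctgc
Gimap3 (chr6:48770852-48771101, minus strand): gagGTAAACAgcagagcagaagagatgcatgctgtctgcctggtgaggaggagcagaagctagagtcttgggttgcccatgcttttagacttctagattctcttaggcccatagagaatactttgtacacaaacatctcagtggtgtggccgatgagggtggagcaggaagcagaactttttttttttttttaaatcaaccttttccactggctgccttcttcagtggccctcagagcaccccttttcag

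Of 7 motifs searched on both strands, FOXO (GTAAACA) was found in the Gimap3 window, 247 bases before the start, and in 3.17% of 32851 promoter windows of the same length. STAT (TTCNNNGAA) was found in the Gimap6 window, 234 bases before the start, and in 7.02% of the windows. ETS (CCGGAAG), RUNX (TGTGGTT), TCF/LEF (CTTTGA), KLF (GGGTGTG) and AP-1 (TGANTCA) were found in 0 of the 8 member windows, against 4.40% to 13.8% of all windows. A match describes letters in a window and is not a binding site.

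Filters on genes detected (500 or more) and on mitochondrial counts (10% or less) kept 6265 TdLN, 5652 PBMC and 7003 memory cells. Clusters that passed a B cell, macrophage or platelet marker list were then set aside, which left 6076, 5503 and 6993 T cells with 68497588, 47765649 and 70037956 counts and median depths of 9744.5, 7099 and 9957 UMIs per cell. All 7 CD8 T cell markers (Cd3d, Cd3e, Cd3g, Cd8a, Cd8b1, Trac and Trbc2) had at least 20 CPM in the T cells of each library. The libraries shared 17 (TdLN and PBMC), 11 (TdLN and memory) and 15 (PBMC and memory) cell barcodes. Cluster 11 (92 memory, 35 PBMC and 9 TdLN cells), led by Igkc, Jchain, Slpi and Ighm, passed no such list and stayed among the T cells. Its memory cells held 7953 CPM of immunoglobulin and Jchain RNA and had a Cd3d, Cd3e or Cd3g UMI in 100% of cells, against 48.7% of cells in the B-like cluster of TdLN. Without cluster 11 the log2 ratios of the GIMAP sum between libraries stayed within their counting intervals.

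In blood, the receptor RNA went against the label for much of the library. UMIs of beta V segments other than Trbv13-3, the segment of the P14 receptor, made up 66.8% of beta V UMIs in effector cells of PBMC (2627 cells, a class defined below), against 12.1% in quiescent cells of PBMC, 10.5% in quiescent cells of TdLN and 4.62% in those of memory. The library labelled PBMC thus holds many cells whose beta segment is not that of P14. Values from cells with a Trbv13-3 UMI and no other beta V segment are given only for the GIMAP sum and some members. The other results from blood carry no such value. No spread between animals can be had from 1 library per group, so no p-value is given and every interval below is a 95% interval for counting error only.

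All 8 GIMAP genes were expressed at 20 CPM or more in all 3 libraries, and together they made up 1343 CPM in TdLN (1334 to 1352), 1788 CPM in PBMC (1776 to 1800) and 1892 CPM in memory (1882 to 1903). Per cell this was 15.1 GIMAP UMIs in TdLN, 15.5 in PBMC and 19.0 in memory. The family sum was 1.41-fold lower in TdLN than in memory (1.40 to 1.42) and 1.33-fold lower in TdLN than in PBMC (1.32 to 1.34), while PBMC lay 1.06-fold below memory (1.05 to 1.07). Among cells with Trbv13-3 alone (1408 TdLN, 929 PBMC and 3017 memory cells), the log2 ratio of the sum was -0.52 for TdLN over memory, -0.37 for PBMC over memory and -0.15 for TdLN over PBMC, beside -0.49, -0.08 and -0.41 over all T cells. These are sums over all T cells of a library, so the mix of cell states and the level within a state cannot be told apart at this step.

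**Figure D1:**
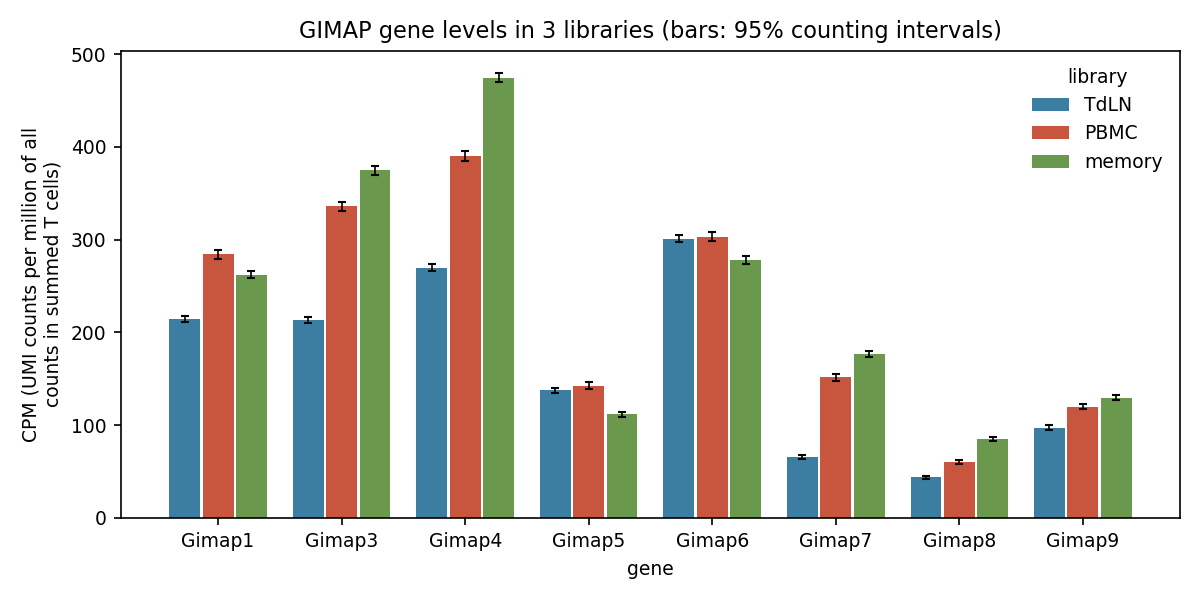
Level of each GIMAP gene (x axis) in CPM (y axis) in the summed T cells of the TdLN, PBMC and memory libraries, 1 library each, with 95% counting intervals as bars. Gimap7 stood at 65.7 CPM in TdLN against 151 in PBMC and 177 in memory, whereas Gimap6 lay between 278 and 303 CPM in the 3 libraries.

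Gimap7, a member known to form catalytically active dimers, had 65.7 CPM in TdLN, 151 CPM in PBMC and 177 CPM in memory. It was 2.69-fold lower in TdLN than in memory (2.60 to 2.79) and 2.30-fold lower than in PBMC (2.22 to 2.39). At equal depth, after each cell was thinned to 3000 UMIs, a Gimap7 UMI was found in 17.8% of cells from TdLN, in 37.6% from PBMC and in 39.6% from memory. Without thinning, the shares were 46.2%, 63.0% and 75.8%.

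Gimap4, Gimap3 and Gimap8 also stood lowest in TdLN and highest in memory. Gimap4, a member studied for its role in T cell apoptosis, had 270 CPM in TdLN, 390 CPM in PBMC and 475 CPM in memory, and was 1.76-fold lower in TdLN than in memory (1.73 to 1.79). Gimap3, a close relative of Gimap5, had 213, 336 and 375 CPM, and was 1.76-fold lower in TdLN than in memory (1.72 to 1.79). Gimap8, the member with several GTPase domains in 1 protein, had 43.8, 60.3 and 84.9 CPM, and was 1.94-fold lower in TdLN than in memory (1.85 to 2.02). Gimap9 followed the same order over a smaller range, with 97.3, 120 and 129 CPM.

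Gimap1, Gimap5 and Gimap6 departed from that order. Over all T cells, Gimap1 was highest in PBMC, with 215 CPM in TdLN, 284 CPM in PBMC and 262 CPM in memory. Its log2 ratio for PBMC over memory was 0.12, but -0.26 among cells with Trbv13-3 alone, where PBMC was below memory. Gimap5 was lowest in memory, with 138 CPM in TdLN, 143 CPM in PBMC and 112 CPM in memory, a level 1.23-fold higher in TdLN than in memory (1.19 to 1.27). Gimap6 had 301, 303 and 278 CPM, and its TdLN and PBMC levels did not differ beyond counting error, with a log2 ratio of -0.01 and a fold of 1.01 lower (0.986 to 1.03). In TdLN against memory, Gimap6 was 1.08-fold higher on total counts, and its log2 ratio of 0.12 became -0.01 with TMM scaling (trimmed mean of M values). With Trbv13-3 alone, the log2 ratios for TdLN over PBMC were 0.16 for Gimap5 and 0.11 for Gimap6. Over all T cells these were -0.05 and -0.01. Gimap6 in PBMC over memory was at -0.02 with Trbv13-3 alone, beside 0.13 over all T cells.

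Read against the rest of the transcriptome, the members lay toward the low side in TdLN. In TdLN over memory, 6 of the 8 were below 0 on the log2 scale on total counts and 7 with TMM, with a median of -0.61 against 0.16 over the 4625 genes that reached 20 CPM in either library. Gimap7 was the 1 member at least 2-fold lower on total counts, where 1.9% of all genes were. With TMM, 2 of 8 members (Gimap7 and Gimap8) were at least 2-fold lower, beside 2.57% of genes. In TdLN over PBMC all 8 members were below the median of all genes, with a median of -0.43 against 0.11, and all 8 were below 0 except that Gimap5 and Gimap6 moved to 0.01 and 0.06 when ribosomal protein and mitochondrial counts were left out of the totals. Gimap7 was again the 1 member at least 2-fold lower, beside 1.92% of genes. In PBMC over memory 0 members were at least 2-fold lower, beside 0.616% of genes, and the median was -0.13 against 0.04. These 3 comparisons share libraries and are not independent of one another.

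The make-up of the family differed between libraries, a measure that does not depend on the other genes. Gimap6 gave 22.4% of all GIMAP counts in TdLN (22.1% to 22.7%), 17.0% in PBMC and 14.7% in memory. Gimap7 gave 4.89% in TdLN (4.75% to 5.03%), 8.47% in PBMC and 9.35% in memory. Gimap4 gave 20.1%, 21.8% and 25.1%, and Gimap5 gave 10.2%, 7.97% and 5.90%. The ratio of Gimap7 to Gimap6 counts was 0.218 in TdLN (0.211 to 0.225), 0.499 in PBMC (0.485 to 0.514) and 0.637 in memory (0.622 to 0.651). These ranges hold counting error only, and other pairs of genes were not compared.

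T cells were next split by genes that are not members. Each cell was thinned to 3000 UMIs and called dividing with at least 3 of 18 division genes, effector with at least 2 of 8 effector genes (such as Gzma, Cx3cr1 and Zeb2), and quiescent with no effector gene, at most 1 division gene and at least 3 of 8 quiescence genes (such as Ccr7, Lef1 and Klf2). This gave 3681 quiescent, 105 effector and 264 dividing cells in TdLN, 1662, 2627 and 28 in PBMC, and 2235, 762 and 11 in memory, with all other cells between the classes. The classes are ranges of a gene count, not cell types, and many cells lay at a limit: 83 of the 105 TdLN effector cells, 442 of those in PBMC and 592 of those in memory had exactly 2 effector genes. Dividing cells were compared only in TdLN, since the other libraries held fewer than 50. GIMAP levels were then read from the full counts of these cells.

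Among quiescent cells, TdLN and PBMC had nearly equal GIMAP sums and memory stood above both. The sum was 1392 CPM in TdLN, 1377 CPM in PBMC and 1870 CPM in memory. The TdLN to PBMC ratio was 1.01 (0.996 to 1.03), an interval that includes equality, while PBMC was 1.36-fold below memory (1.34 to 1.38). TdLN and PBMC, 1.33-fold apart over all T cells, were thus 1.01-fold apart within this class as a whole. Their quiescent cells differed in depth, with medians of 9581 and 12170 UMIs. At 5000 to under 8000 UMIs, TdLN had 1493 CPM and PBMC 1835 (99 cells). The values were 1392 and 1455 at 8000 to under 12000 UMIs, and 1338 and 1310 at 12000 or more. The near equality therefore did not hold at each depth.

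Of the 8 members in quiescent cells, 6 were higher in memory than in both other libraries. No share of all genes and no other scaling is given for comparisons within this class. Whether many genes shared that direction was not tested. Gimap7 had 68.1 CPM in TdLN, 77.0 CPM in PBMC and 170 CPM in memory, with log2 ratios to memory of -1.32 in TdLN and -1.14 in PBMC. Gimap8 had 47.2, 44.2 and 83.2 CPM, and its TdLN and PBMC values did not differ beyond counting error (ratio 1.07, 0.984 to 1.16). Gimap4 had 271, 293 and 467 CPM, and Gimap3 had 230, 271 and 372. Gimap1 had 221, 199 and 262 CPM, and Gimap9 had 97.5, 103 and 130. Gimap4 and Gimap3 thus gave the largest differences in CPM, and Gimap7 the largest ratio. Gimap5 was highest in TdLN, with 142 CPM against 113 in PBMC and 108 in memory. Gimap6 was highest in TdLN too, with 315 CPM, while its PBMC and memory values of 277 and 278 could not be separated (ratio 0.995, 0.960 to 1.03). The memory library was sorted for CD127 and against KLRG1 and the others were not, and it came from mice after LCMV infection where the others came from tumour-bearing mice, at another time. The sort, the setting and the time cannot be told apart.

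In blood, effector cells devoted a larger share of their RNA to GIMAP genes than quiescent cells did. The sum was 2405 CPM in effector and 1377 CPM in quiescent cells of PBMC, a 1.75-fold difference (1.72 to 1.77). All 8 members were above 0 on total counts, as were 84.9% of all genes. The members' log2 ratios ran from 0.28 for Gimap6 to 1.74 for Gimap7. Of the 8, 7 lay above the median of all genes, which was itself 0.49. With TMM or with totals free of ribosomal protein and mitochondrial counts, the other 7 stayed above 0 and Gimap6 moved to -0.16 and -0.25. Those scalings shift every gene of this comparison by -0.44 and -0.53, so the sum moved to 0.36 and 0.28, and the gap of 0.31 between the sum and the median of all genes is the same under each by construction.

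Gimap7 had 257 CPM in PBMC effector cells (249 to 265) against 77.0 in quiescent cells (73.2 to 80.9), a 3.33-fold difference (3.14 to 3.54). Gimap1, which is required by mature lymphocytes, had 427 against 199 CPM and was 2.14-fold higher (2.06 to 2.23). These 2 of 8 members were at least 2-fold higher, beside 12.1% of 4728 genes. Gimap1 fell below 2-fold with the other scalings, at a log2 ratio of 0.66 with TMM and 0.57 with totals free of ribosomal protein and mitochondrial counts, which left Gimap7 as 1 of 8 members beside 5.67% and 5.05% of genes. Gimap1 was also below 2-fold among cells with Trbv13-3 alone (0.75) and in the depth ranges of 5000 to under 8000 UMIs (0.72) and 8000 to under 12000 UMIs (0.86). Gimap8 (85.1 against 44.2 CPM), Gimap4 (532 against 293 CPM) and Gimap5 (188 against 113 CPM) were 1.92-fold, 1.82-fold and 1.67-fold higher. Gimap3 (430 against 271 CPM) was 1.59-fold higher, Gimap9 (150 against 103 CPM) 1.45-fold and Gimap6 (336 against 277 CPM) 1.21-fold.

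Per cell, the picture in blood was the reverse for most members. Effector cells of PBMC held a median of 5265 UMIs and quiescent cells 12170, and GIMAP UMIs per cell averaged 14.2 in effector and 16.7 in quiescent cells. Gimap7 was the member with a clear excess per cell, 1.51 UMIs in effector against 0.937 in quiescent cells, and Gimap1 had 2.52 against 2.42. Gimap6 had 1.98 against 3.37 UMIs per cell and Gimap3 had 2.54 against 3.29. Ribosomal protein and mitochondrial genes took 33.7% of the counts of effector cells and 54.0% of those of quiescent cells. Less RNA per cell and less RNA captured per cell cannot be told apart in these counts.

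**Figure D2:**
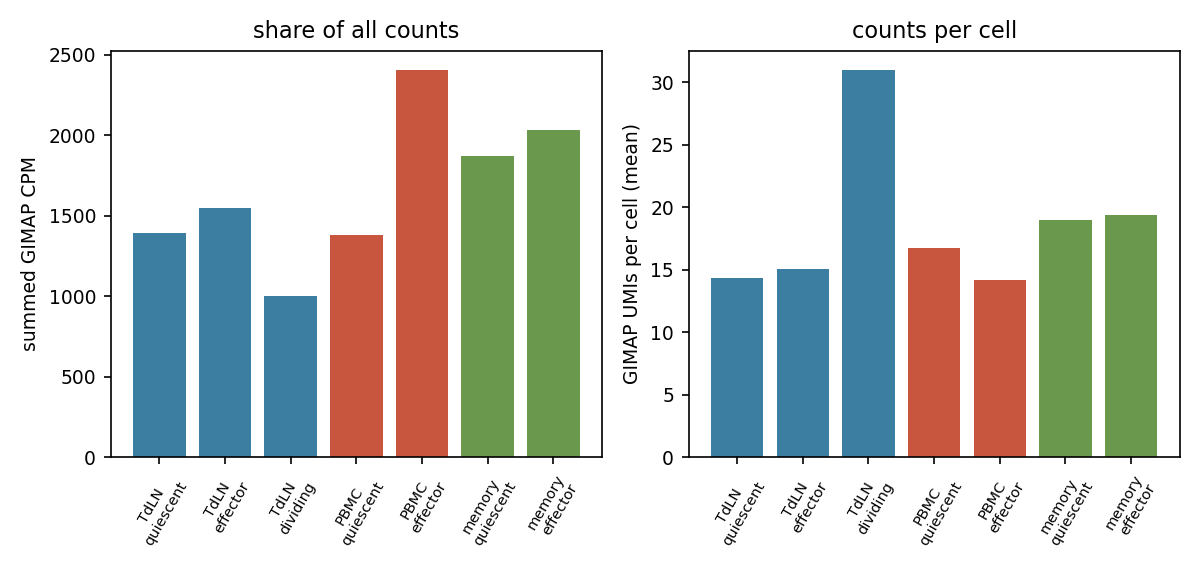
Summed GIMAP level in cell states of each library as a share of all counts (left, CPM) and as mean UMIs per cell (right), with bars coloured by library and no error drawn. PBMC effector cells stood highest by share, at 2405 CPM, and at 14.2 UMIs per cell; dividing TdLN cells stood lowest by share, at 1003 CPM, and highest per cell, at 31.0 UMIs.

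The ratio of Gimap7 to Gimap6 within the same cells, which no scaling changes, was 0.278 in quiescent cells of PBMC (0.263 to 0.294) and 0.765 in effector cells (0.734 to 0.797). In TdLN it was 0.216 in quiescent, 0.332 in effector (0.267 to 0.411) and 0.213 in dividing cells. In memory it was already 0.611 in quiescent cells (0.587 to 0.636) and 0.681 in effector cells (0.636 to 0.728). The quiescent memory cells therefore carried a Gimap7 to Gimap6 ratio nearer to that of blood effector cells than to that of quiescent cells of the tumour-bearing mice.

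Several measured properties moved with the effector class in blood. The share of beta V UMIs that were not Trbv13-3 is given above. Among cells with a Trbv13-3 UMI and no other beta segment (142 effector and 523 quiescent cells), the log2 ratio was 0.67 for the sum and 1.73 for Gimap7. In cells of 5000 to under 8000 UMIs it was 0.42 for the sum and 0.91 for Gimap7, and in cells of 8000 to under 12000 UMIs it was 0.78 and 2.01. Gimap6 was at -0.25 in the shallower of these depth ranges.

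Markers of other cell types in the blood classes were mostly low, and their part in the GIMAP difference was not tested. Of 5 NK genes, all 5 had a UMI in effector cells with a summed 90.5 CPM, and 3 had one in quiescent cells with 31.4 CPM, where Ncr1 and Klra8 were at 0. The B cell list (8 genes) summed to 26.2 CPM in effector and 156 in quiescent cells, nearly all of it Ighm, with Ms4a1 and Pax5 at 0 in both. The macrophage, monocyte and dendritic list (10 genes) summed to 178 and 75.1 CPM, led by Cst3, with C1qa, C1qb and C1qc at 0 in both, and shares Tyrobp with the NK list. The gamma delta T list (5 genes) summed to 132 and 357 CPM, led by Trdc with 89.9 and 343 CPM. Without Trdc, the sum of that list was higher in effector than in quiescent cells, although Sox13 was at 0 in effector cells. With Trdc included, 2 genes of the list reached 20 CPM in effector cells and 1 in quiescent cells. The platelet list (6 genes) summed to 11.5 and 3.51 CPM. Cd4 was at 0 in both classes and all 4 neutrophil genes were at 0 in both. The CD8 T list summed to 7203 CPM in effector and 5046 CPM in quiescent cells.

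At 3000 UMIs per cell, effector cells of blood also carried more different members at once. At least 4 of the 8 were detected in 73.1% of PBMC effector cells and in 33.5% of PBMC quiescent cells. The share was 35.2% in quiescent TdLN cells, 55.1% in quiescent memory cells and 22.3% in dividing TdLN cells. Detection at equal depth follows the share of counts, so this is no measure apart from the CPM values. Without thinning it lay between 92.4% and 98.0% in all 7 classes compared, and the order turned round. It was then 94.6% in effector and 96.1% in quiescent cells of PBMC, and 97.3% in dividing and 93.1% in quiescent cells of TdLN. The macrophage-like cells set aside from TdLN, with a median of 2472 UMIs, gave 565 GIMAP CPM, and 32.7% of them had a Cd3d, Cd3e or Cd3g UMI.

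In TdLN and memory the effector class was closer to the quiescent class on total counts, and the TdLN value depended on the class limit. In TdLN, the sum was 1549 CPM in 105 effector cells and 1392 in quiescent cells, a 1.11-fold difference (1.06 to 1.17) with a log2 ratio of 0.15. TMM took it to -0.01, while stricter cell filters took it to 0.36, a mean over cells to 0.27 and a limit of 3 effector genes, which left 22 effector cells, to 0.59. Gimap7 had 114 against 68.1 CPM and was 1.67-fold higher (1.37 to 2.01), above 0 under each alternative run. Gimap1 had 190 against 221 CPM, 1.16-fold lower (1.01 to 1.35), though at 0.28 on the log2 scale when 3 effector genes were required, and at 0.10 with stricter cell filters. Of the 8 members, 0 were at least 2-fold higher, beside 1.98% of genes. The members' median log2 ratio was 0.12 and that of all genes 0.14.

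In memory, the sum was 2035 CPM in effector and 1870 CPM in quiescent cells, 1.09-fold higher (1.07 to 1.11). The 8 members lay between 0.06 and 0.22 on the log2 scale on total counts, where 73.4% of all genes were above 0. The median of all genes was 0.07, and 5 of the 8 members lay above it. Gimap1, Gimap5 and Gimap6 moved just below 0 with TMM. Gimap7 was the highest, with 198 against 170 CPM. None was at least 2-fold higher (0 of 8), beside 0.253% of genes. The memory gate removed KLRG1+ cells, and Gzma had 70.5 CPM in memory effector cells against 3814 in those of PBMC and 527 in those of TdLN, so the class does not hold the same cells in the 3 libraries. Whether the effector contrast differs between libraries could not be tested with 1 library each.

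**Figure D3:**
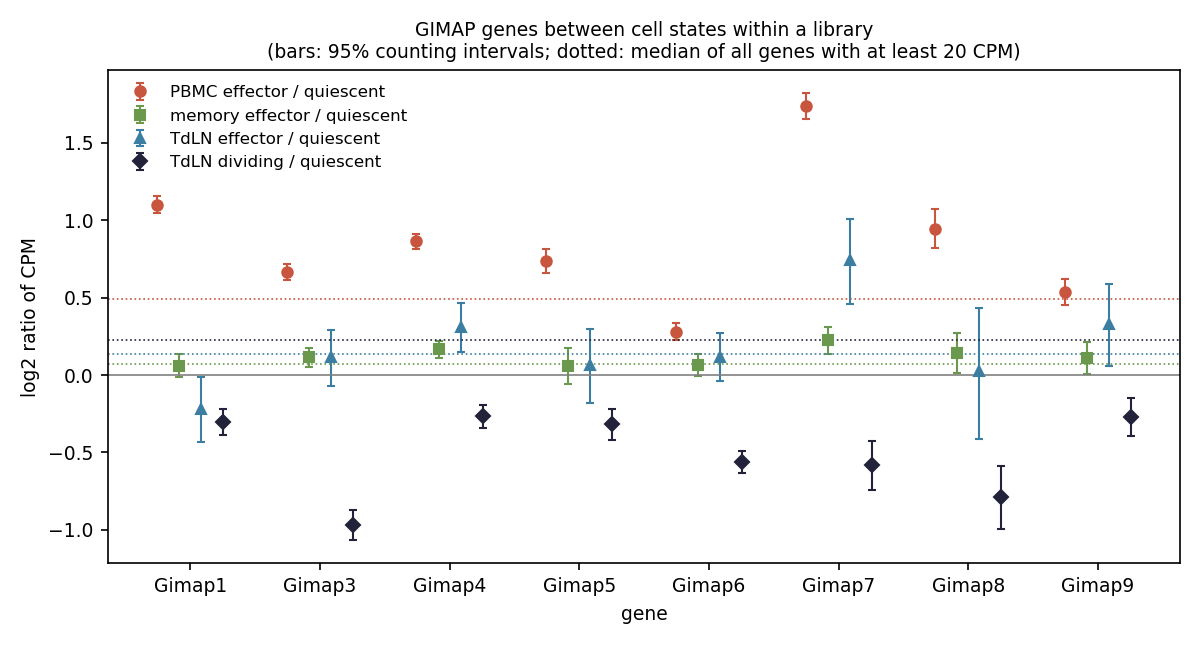
Log2 ratio of CPM (y axis) of each GIMAP gene (x axis) for effector over quiescent cells in the 3 libraries and dividing over quiescent cells in TdLN, with 95% counting intervals as bars and the median of all genes tested as dotted lines of the same colour. Gimap7 reached 1.74 in PBMC, and the 8 genes lay between -0.97 and -0.27 in dividing cells.

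Dividing cells of TdLN gave the lowest share of RNA to GIMAP genes. The sum was 1003 CPM in 264 dividing cells and 1392 CPM in quiescent cells, 1.39-fold lower (1.36 to 1.42). All 8 members were below 0 on total counts and under both other scalings, from -0.27 to -0.97 on the log2 scale, with a median of -0.44 against 0.23 for all genes. Gimap3 had 117 against 230 CPM and was 1.96-fold lower (1.83 to 2.10), and Gimap8 had 27.4 against 47.2 CPM and was 1.72-fold lower. Gimap7 (45.4 against 68.1 CPM) and Gimap6 (214 against 315 CPM) had log2 ratios of -0.58 and -0.56. Gimap5, Gimap1, Gimap9 and Gimap4 were between 1.20-fold and 1.25-fold lower. On total counts, 0 of 8 were at least 2-fold lower, beside 3.11% of genes. Gimap3 passed 2-fold with TMM, at -1.09 (1 of 8, beside 4.48% of genes), and was at -1.05 with stricter cell filters and -1.01 when 5 division genes were required. With totals free of ribosomal protein and mitochondrial counts Gimap3 was at -1.28 and Gimap8 at -1.10 (2 of 8, beside 7.65% of genes).

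Per cell, the dividing cells held more GIMAP RNA of each kind. Their median depth was 27729 UMIs against 9581 in quiescent cells, and they averaged 31.0 GIMAP UMIs per cell against 14.3. Gimap4 had 6.95 against 2.79 UMIs per cell and Gimap3 had 3.63 against 2.36. The lower share thus went with a total that was larger still. Doublets were not called, and their part among cells of this depth was not tested. The B cell list summed to 254 CPM in dividing and 233 CPM in quiescent cells. Beta V UMIs other than Trbv13-3 made up 23.5% of 98 in dividing cells, against 10.5% of 1278 in quiescent cells of TdLN. Cells with Trbv13-3 alone (57 dividing and 866 quiescent cells) were among the alternatives run. The sum stayed lower in dividing cells in 8 of 8 alternatives.

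Across clusters found without GIMAP genes, the highest GIMAP level was in a small cluster of memory cells. Cluster 13, led by Ckb, P2rx7 and Atp8a2 with Itga1 and Xcl1 among its top genes, had 3448 CPM in its 96 memory cells (3303 to 3598), at a median of 6593 UMIs and 22.2 GIMAP UMIs per cell. There Gimap4 reached 921 CPM, Gimap3 629 and Gimap7 419. The 2 main memory clusters had 1722 CPM (cluster 0, 3500 cells) and 2056 CPM (cluster 1, 3057 cells), or 16.9 and 21.8 GIMAP UMIs per cell, at median depths of 10039 and 10106 UMIs. Cluster 1 was above cluster 0 for all 8 members, by ratio most for Gimap8 (101 against 68.8 CPM) and in CPM most for Gimap4 (532 against 415). No share of all genes is given for this pair of clusters, so whether many genes shared that direction was not tested. The 92 memory cells of cluster 11, the cluster led by immunoglobulin genes, had 1228 CPM at a median of 4377.5 UMIs.

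In PBMC, the effector clusters 4 (Gzma, Cx3cr1, Klrg1) and 6 (Serp2, Tcrg-C2, S100a4) had 2401 and 2593 CPM. Cluster 6 held 339 CPM of Gimap7 and 2.29 UMIs of it per cell, and cluster 4 held 238 CPM and 1.23 UMIs. The small effector cluster 14 of 107 PBMC cells, at a median depth of 16556 UMIs, had 1862 CPM and 29.9 GIMAP UMIs per cell. PBMC cells of cluster 5, which is led by Fam241a, Ccr7 and Tmem108, had 1359 CPM, close to the 1401 CPM of the 97 TdLN cells in the same cluster. The 80 memory cells of cluster 4 had 2488 CPM (2337 to 2646), next to 2401 CPM in the 2145 PBMC cells of that cluster, and 10.3% of their 29 beta V UMIs were not Trbv13-3, against 73.4% of 418 in PBMC.

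The TdLN clusters spanned a smaller range. Cluster 3 (Id3, Dusp1, Fos) had 1538 CPM and cluster 2 (Igfbp4, Fos, Rgcc) had 1263 CPM, or 16.9 and 12.0 GIMAP UMIs per cell. Gimap4 differed most in CPM between these clusters, with 316 against 237, while Gimap1 had 228 against 213. The interferon cluster 7 (Rsad2, Ifit1, Ifit3), present in all 3 libraries, kept the library order with 1427 CPM in TdLN, 1584 CPM in PBMC and 1762 CPM in memory. Its Gimap7 levels were 68.8, 109 and 164 CPM. The dividing cluster 8 was lowest of all T cell points, at 972 CPM in 386 TdLN cells.

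**Figure D4:**
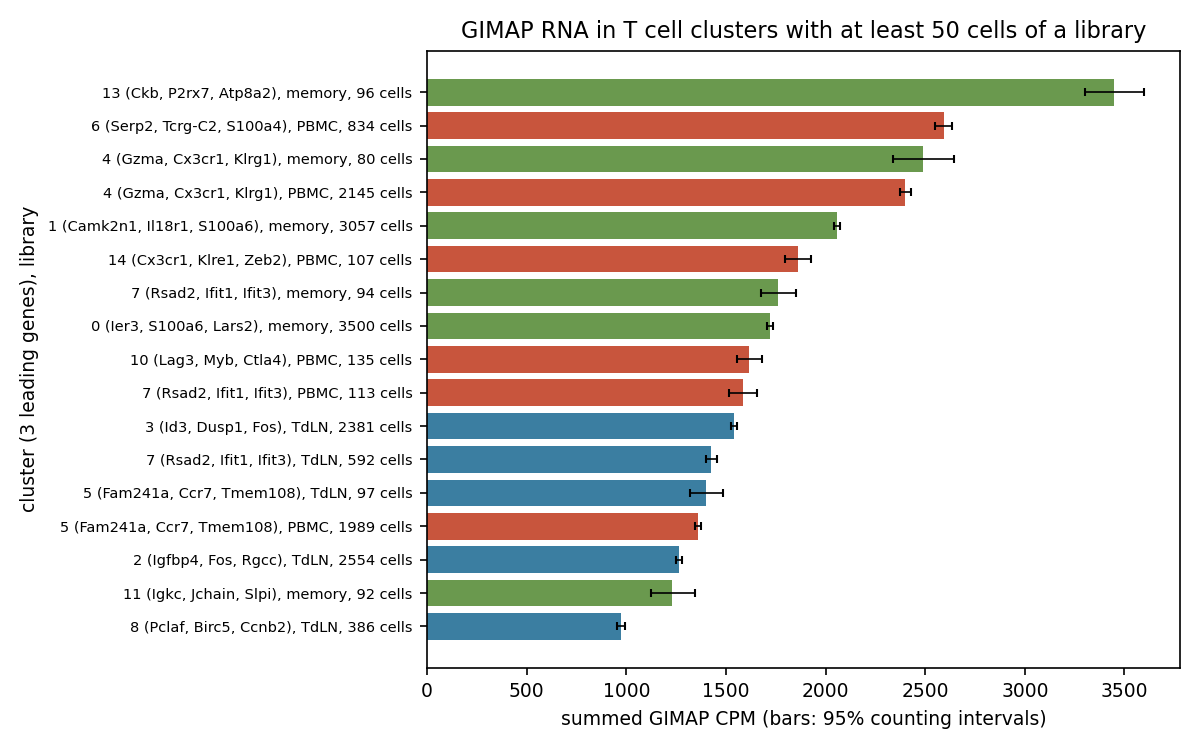
Summed GIMAP CPM (x axis) in each cluster of T cells with at least 50 cells of a library (y axis, with the 3 leading genes, the library and the number of cells), coloured by library, with 95% counting intervals. Memory cells of cluster 13 stood highest at 3448 CPM and dividing TdLN cells of cluster 8 lowest at 972 CPM.

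The members did not move as 1 block over these 17 points, which share libraries and differ in depth. Against the sum of the other 7, Gimap3 had a Pearson r of 0.94, Gimap1 and Gimap4 0.92, Gimap8 0.92, and Gimap7 and Gimap9 0.90 on log2(CPM + 10). Gimap6 had 0.67 and Gimap5 0.63, which placed them at rank 452 and rank 555 of 3184 genes, whereas the other 6 members ranked between 4 and 17. The non-member genes most like the family sum were Tgoln1 (r 0.95, 40.5 to 129 CPM), Ptpre (0.93), Sec62 (0.93), Cd38 (0.92), Abcb1a (0.92), Akna (0.92), Rbl2 (0.92) and Baiap3 (0.92), out of 3183 ranked. Without the point of cluster 11, Gimap6 stood at rank 467 and Gimap5 at rank 668, the other 6 members between 2 and 12, and these 8 genes between 1 and 11. Tgoln1 encodes a protein of the trans-Golgi network and Abcb1a a drug efflux pump. These correlations describe 17 points and carry no test.

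Depth moved with GIMAP levels inside every library. From the third of cells with the fewest UMIs to the third with the most, the sum went from 1505 to 1239 CPM in TdLN, from 2407 to 1417 in PBMC and from 2086 to 1793 in memory. Quiescent cells of 8000 to under 12000 UMIs had 1392 CPM in TdLN, 1455 CPM in PBMC and 1877 CPM in memory, so the order of memory above the other libraries was also present at that depth.

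The ATG8 family, whose protein GABARAPL2 is known to bind GIMAP6, had 3 of 5 genes with at least 20 CPM. Gabarapl2 had 113 CPM in TdLN, 210 CPM in PBMC and 202 CPM in memory. It was 1.79-fold lower in TdLN than in memory (1.74 to 1.84). In PBMC effector cells it had 334 against 138 CPM in quiescent cells, 2.43-fold higher (2.32 to 2.54). On total counts it was the 1 of 3 genes past 2-fold, beside 12.1% of all genes. Its log2 ratio of 1.28 falls below 2-fold with the other scalings, which shift every gene of this comparison by -0.44 and -0.53. Gabarapl2 was 1.54-fold higher in TdLN effector cells (1.31 to 1.79) and 1.07-fold lower in dividing cells (0.990 to 1.15). Its values beside those of Gimap6 thus differed, since Gimap6 was nearly level between the libraries.

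Of the BCL2 family (12 genes), 0 of 8 measured genes were 2-fold apart between TdLN and memory, where 3.96% of all genes were higher and 1.9% lower. In PBMC effector cells 3 of 10 were at least 2-fold higher and 1 lower, beside 12.1% and 2.28% of all genes. The anti-apoptotic gene Bcl2a1d had 70.2 against 3.91 CPM and Bcl2a1b 125 against 18.1 CPM, near-identical copies whose counts can be split between them. Pmaip1, a pro-apoptotic member, had 25.7 against 6.93 CPM, and the 1 lower gene, Bcl2, had 165 against 353 CPM. In dividing TdLN cells 2 of 9 were higher and 2 lower, beside 14.1% and 3.11% of all genes. Bcl2a1d had 67.4 against 11.7 CPM and Bcl2a1b 149 against 54.8 CPM. Bbc3, a pro-apoptotic member, had 5.16 against 41.8 CPM and Bcl2 had 55.5 against 251 CPM. Bcl2 was therefore lower in both classes, while the GIMAP share was lower in dividing and higher in blood effector cells.

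The quiescence and growth restraint list (15 genes) had 9 genes at least 2-fold lower in dividing TdLN cells and 0 higher, beside 3.11% and 14.1% of all genes, with a median of -1.16 against -0.44 for the GIMAP genes. Of its genes, Klf2, S1pr1, Foxp1, Lef1 and Tcf7 also helped to define the quiescent class, so their direction is no independent result. Pik3ip1, an inhibitor of PI3 kinase, had 23.4 against 78.3 CPM there, Tsc22d3, a glucocorticoid-induced gene, 36.3 against 112, and Btg1, an anti-proliferative gene, 424 against 1226. In PBMC effector cells 3 of the 15 were at least 2-fold lower and 0 higher, beside 2.28% and 12.1% of all genes, with a median of -0.05 against 0.80 for the GIMAP genes. Tcf7, which encodes TCF-1, had 71.2 against 286 CPM in that comparison, Lef1, a related transcription factor, 70.1 against 195, and Pik3ip1 27.7 against 64.6.

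The T cell receptor complex list had 9 of 9 genes measured, and 0 were 2-fold apart in either direction in PBMC effector or dividing TdLN cells. Of all genes, 12.1% were higher and 2.28% lower in PBMC effector cells, and 14.1% and 3.11% in dividing cells. The list had medians of 0.55 and 0.04, against 0.49 and 0.23 for all genes. Of 7 measured mTORC1 and growth targets (13 listed), 3 were at least 2-fold higher in dividing cells and 1 lower, beside 14.1% and 3.11% of all genes. The glycolytic genes Ldha and Pkm had 810 against 287 CPM and 534 against 190 CPM, Odc1, an enzyme of polyamine synthesis, had 131 against 58.1 CPM, and the 1 lower gene, Myc, had 24.5 against 56.9 CPM. In PBMC effector cells 0 were higher and 1, Myc, was lower, beside 12.1% and 2.28% of all genes. Each list is described by its own counts, and no list was compared with another by a test.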

How the data were processed

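Droplet 3' single-cell RNA was measured in 3 sorted CD8 T cell libraries. The authors deposited unnormalized UMI counts (whole numbers), and the submitters' processing notes name Cell Ranger 3.1.0 and mm10. All gene columns were read, and 30934 of 31053 gene IDs were found in GENCODE M21. Cells under 500 genes or over 10% mitochondrial counts were removed, and the 3 libraries were clustered jointly without GIMAP genes (2000 variable genes, 30 principal components, Leiden resolution 0.8, leidenalg 0.10.2, scikit-learn 1.9.0). No doublet caller was run. An alternative left out the 5% of cells with the most UMIs.

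Counts were summed per library and class and divided by their total. Levels have exact Poisson intervals, ratios exact conditional binomial and shares Clopper-Pearson intervals (95%, scipy 1.17.1), which cover counting error of UMIs only. The background was every gene that reached 20 CPM in either sum compared. TMM factors came from edgeR 4.0.16. The ratio code was tested on simulated counts. The 8 members, the gene lists and the comparisons were chosen with earlier results of these data known. Named genes were all members, the 8 genes most like their sum, up to 3 per other list with the largest ratios, and neighbours within 200 kb. Bcl2 in blood, Bcl2a1b in dividing cells and Odc1 were added after their values were seen, to complete short counts. Protein sequences were not used here. One sort marker, and the subset of cells chosen by its gene, are not reported here.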

Additional observations from a re-analysis of the deposited data

Results flagged for a closer look

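On total counts, Gimap1 went in opposite directions in the effector class of the libraries from tumour-bearing mice. Its log2 ratio over quiescent cells was 1.10 in PBMC and -0.22 in TdLN. The TdLN value was 0.28 when 3 effector genes were required, which left 22 effector cells, and 0.10 with stricter cell filters. The difference between libraries was not tested.

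GIMAP RNA was also present in the clusters set aside. Cluster 9 of PBMC (149 cells) passed the platelet list and the effector list, and its cells carried T cell RNA: 98.0% had a Cd3d, Cd3e or Cd3g UMI and it held 60 beta V UMIs, or 0.403 per cell, against 0.195 per cell in the effector cluster 4 of PBMC. Its GIMAP sum of 1830 CPM is therefore not a level of cells other than T cells. The B-like cluster of TdLN (76 cells) had 1437 CPM and the macrophage-like cluster of TdLN (113 cells) had 565 CPM, and 48.7% and 32.7% of their cells had such a Cd3 UMI. The median depths of the 3 clusters were 7047, 4605.5 and 2472 UMIs.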

How the results depend on the processing

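The GIMAP sum kept its direction under every alternative run in 4 of 7 comparisons: TdLN over memory, and in dividing TdLN, effector PBMC and effector memory cells. It changed sign once in each of PBMC over memory, TdLN over PBMC and TdLN effector cells. The log2 ratio of the sum moved beyond its counting interval as follows, with class values over quiescent cells. With TMM scaling it was -0.62 for TdLN over memory, -0.53 for TdLN over PBMC, -0.00725 for TdLN effector cells, -0.60 for TdLN dividing cells, 0.36 for PBMC effector cells and 0.0401 for memory effector cells. With totals free of ribosomal protein and mitochondrial counts it was -0.48 for TdLN over memory, -0.14 for PBMC over memory, -0.35 for TdLN over PBMC, 0.0277 for TdLN effector cells, -0.78 for TdLN dividing cells, 0.28 for PBMC effector cells and 0.0493 for memory effector cells. With stricter cell filters (1000 genes or more, 5% mitochondrial or less) it was -0.58 for TdLN over memory, -0.0522 for PBMC over memory, -0.53 for TdLN over PBMC, 0.36 for TdLN effector cells, -0.52 for TdLN dividing cells and 0.88 for PBMC effector cells. Without the 5% of cells with the most UMIs it was -0.43 for TdLN over memory, -0.0436 for PBMC over memory and -0.39 for TdLN over PBMC. In cells with Trbv13-3 alone it was -0.52 for TdLN over memory, -0.37 for PBMC over memory, -0.15 for TdLN over PBMC and 0.67 for PBMC effector cells. In quiescent cells it was -0.43 for TdLN over memory, -0.44 for PBMC over memory and 0.0156 for TdLN over PBMC. As a mean over cells it was -0.45 for TdLN over memory, 0.052 for PBMC over memory, -0.50 for TdLN over PBMC, 0.27 for TdLN effector cells and -0.34 for TdLN dividing cells. With 3 effector or 5 division genes required it was 0.59 for TdLN effector cells and 0.28 for memory effector cells. At 5000 to under 8000 UMIs it was 0.42 for PBMC effector cells and 0.20 for memory effector cells. At 8000 to under 12000 UMIs it was 0.78 for PBMC effector cells and 0.0803 for memory effector cells. The cause was not tested. Of single members, TdLN dividing cells kept the sign in 64 of 64 values, TdLN over memory in 71 of 72, PBMC effector cells in 85 of 88, memory effector cells in 71 of 80, PBMC over memory in 67 of 72, TdLN over PBMC in 62 of 72 and TdLN effector cells in 52 of 64. Leaving out cluster 11, or keeping cluster 9 of blood, left each sum it was run for within its counting interval. The depth ranges and these cluster alternatives were chosen after seeing the data. A background of genes with at least 100 CPM cannot alter a member's ratio, but it changes the medians. In dividing TdLN cells the median of all genes was then 0.49 instead of 0.23. That of the 5 members tested was -0.32 instead of -0.44. In TdLN over memory the members' median was -0.41 (7 tested) instead of -0.61, and that of all genes stayed at 0.16.

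With 1 library per group, leaving one out was not possible and no spread between animals is known. No paired analysis was possible because each group is 1 library of unknown animals. The TdLN effector class rests on 105 cells.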
